A study of Homo sapiens with 6 samples.

Results

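IL7R and 6 related cytokine genes were described in H358 cells, an established human lung cancer cell line, after knockdown of RBM47, an RNA-binding protein. The 7 genes are the receptor genes IL7R, IL2RG, IL4R, IL13RA1 and IL15RA and the ligand genes IL7 and TSLP. They were taken by symbol from a table of 57150 genes, and each symbol occurred in 1 row. The set was selected on knowledge of its receptor family and with knockdown and control levels of these same libraries already known, so the members' differences between the groups are given as a description, without p-values. The knockdown group held 3 libraries of cells carrying lentiviral short hairpin RNAs against RBM47, and the control group held 3 libraries of cells with a control knockdown. The series design calls the 3 of each group biological triplicates. The labels tell nothing of the number of hairpins, of clones or of the time after infection. All 6 libraries came from total RNA made into stranded mRNA libraries and sequenced as paired ends.

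Type I cytokine receptors are single-pass membrane proteins without a kinase of their own. Ligand binding joins 2 chains, the Janus kinases (JAKs) bound to the chains phosphorylate each other and the receptor, and STAT transcription factors are recruited, phosphorylated and sent to the nucleus. IL7R encodes the alpha chain that pairs with the common gamma chain, the product of IL2RG, to bind interleukin 7, and with CRLF2 to bind TSLP. IL4R pairs with the common gamma chain for interleukin 4, or with IL13RA1 for interleukins 4 and 13, and the latter pair is the form known from epithelial cells. IL15RA binds interleukin 15 and presents it to other cells. IL7R is best known from lymphocytes, where it signals survival, whereas TSLP is an alarm cytokine released by epithelia, airway epithelium included.

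The values are FPKM, fragments counted per transcript length and per mapped fragments of the library, as deposited by the authors. They are normalized for length, so that levels of different genes can be compared. The number of fragments behind them is unknown. Library totals ran from 651951 to 673552 FPKM. A gene entered the fit across all genes where its mean reached 1 FPKM, which 14419 did (limma on log2(FPKM + 1), Benjamini-Hochberg adjusted p under 0.05). Of the 7 members 5 met this minimum, and IL2RG and TSLP lay below it. RBM47 itself stood at 85.2, 92.4 and 87.9 FPKM in the controls and at 12.01, 13.4 and 13.5 FPKM after knockdown (log2 fold change -2.68, SE 0.06, adjusted p = 2.04e-06). Epithelial markers were abundant. The summed level of 6 genes (EPCAM, CDH1 and 4 keratins) was 3032 to 3107 FPKM in the knockdown libraries and 3627 to 3889 FPKM in the controls. By the fit 5 of the 6 were lower in the knockdown, beside 6.34% of all tested genes. The calls of these markers under other scalings were not examined. Of 7 lung lineage genes NKX2-1, FOXJ1 and TP63 were detected above the minimum, while the surfactant gene SFTPB and the club cell gene SCGB1A1 were listed at 0 in every library. Because RNA of whole cultures was measured, fewer cells of a kind and less RNA per cell cannot be told apart in any value below.

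IL7R was 1.94 times as high in the knockdown as in the controls, the largest difference on the log2 scale among the 5 tested members. Its level (ENSG00000168685, alone in its locus on chromosome 5, 35852797 to 35879705, hg19) was 31.5, 33.2 and 34.2 FPKM in knockdown replicates 1, 2 and 3 and 16.4, 17.1 and 17.5 FPKM in control replicates 1, 2 and 3. Each knockdown library was thus above every control library, and the groups lay far apart against their spread. The knockdown mean was 33.0 ± 1.34 FPKM against 17.0 ± 0.550 FPKM in the controls (SD, n = 3). On the log2(FPKM + 1) scale the difference was 0.92 (SE 0.05, 95% interval 0.79 to 1.04), which ranked 106 from the top among the 14419 tested genes. It ran from 0.89 to 0.95 over 16 other ways of processing, leaving out each library included. These are gene-level values: the transcript that skips an exon and gives the soluble form of the receptor was not separated from the membrane form.

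**Figure D1:**
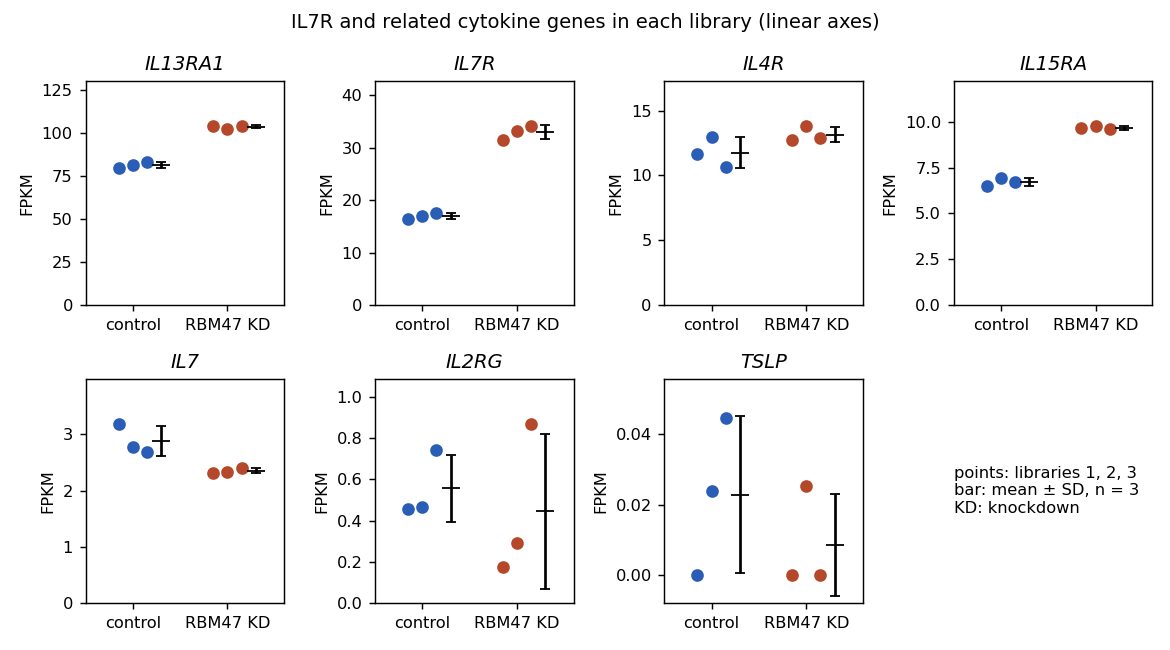
FPKM of the 7 genes in each library, 1 panel per gene with a linear axis (points are libraries 1 to 3 of the control group, blue, and of the knockdown group, red; black bars are mean ± SD, n = 3). IL7R, IL13RA1 and IL15RA have all 3 knockdown points above the controls, IL7 has them below, and IL4R, IL2RG and TSLP overlap.

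The partner chain was scarcely present. IL2RG (ENSG00000147168, chromosome X, 70327254 to 70331958, hg19) was listed at 0.172, 0.289 and 0.871 FPKM in knockdown replicates 1 to 3, against control values of 0.458, 0.467 and 0.743 FPKM. The ranges overlapped, and knockdown replicate 3 was higher than any other library. The mean was 0.444 ± 0.374 FPKM after knockdown and 0.556 ± 0.162 FPKM in the controls (SD, n = 3), and with no filter the difference on the log2(FPKM + 1) scale was -0.13 with a 95% interval of -0.59 to 0.33. The ratio of IL7R to IL2RG in FPKM ran from 23.5 to 36.5 in the controls and from 39.2 to 183 in the knockdown libraries. These ratios rest on a denominator near the floor, and knockdown replicate 3 (39.2) was close to the highest control. CRLF2, the other partner of IL7R and the TSLP-binding chain, lay at 3.13, 2.66 and 1.57 FPKM in the knockdown and 2.49, 1.87 and 2.15 FPKM in the controls (log2 fold change 0.10, 95% interval -0.34 to 0.53). It is located in the region shared by the X and Y chromosomes, where assignment of reads can be uncertain.

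Lymphocyte markers were at or near 0. Of 8 lymphocyte markers none reached 1 FPKM in any library and 4 (CD3D, CD2, MS4A1 and NKG7) were listed at 0 in all 6, and the highest single value was 0.351 FPKM. Their summed level was 0.215 to 0.5004 FPKM in the knockdown libraries and 0.108 to 0.573 FPKM in the controls. The pan-leukocyte gene PTPRC was at 0.098 to 0.122 FPKM in the knockdown and 0.035 to 0.089 FPKM in the controls, apart but far below 1 FPKM. Of 7 myeloid markers 3 were listed at 0 throughout, and the summed level was 1.402 to 1.67 against 1.27 to 1.79 FPKM. Endothelial markers (4 genes in the table) summed to 0.459 to 0.695 against 0.385 to 0.548 FPKM. Fibroblast markers (6 genes, with LUM and COL1A1 holding most) summed to 26.8 to 35.1 against 32.5 to 35.9 FPKM.

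IL15RA and IL13RA1 were also higher in the knockdown, by smaller amounts. IL15RA (ENSG00000134470, alone in its locus on chromosome 10, 5990855 to 6020150, hg19) had 9.66, 9.77 and 9.58 FPKM in knockdown replicates 1 to 3, against 6.51, 6.92 and 6.73 FPKM in the controls. The groups did not overlap, and the knockdown values differed among themselves by less than those of the controls. The mean was 9.67 ± 0.0990 FPKM after knockdown against 6.72 ± 0.204 FPKM (SD, n = 3), 43.9% higher in the knockdown (log2 difference 0.47, SE 0.06, 95% interval 0.32 to 0.62). Its ligand gene IL15, outside the set, was at 5.90, 5.12 and 5.10 FPKM in the knockdown and 4.51, 4.61 and 5.08 FPKM in the controls and was not past the threshold (log2 fold change 0.15, SE 0.09, limma, adjusted p = 0.307). H358 cells thus had transcripts of both interleukin 15 and the chain that presents it in all 6 libraries. For IL2RB, the signalling chain that responds to it, the highest value in any library was 0.470 FPKM.

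IL13RA1 was the most abundant member. Its level (ENSG00000131724, chromosome X, 117861535 to 117928502, hg19, sharing a locus with 2 other genes in the table) was 79.9, 81.8 and 83.1 FPKM in control replicates 1 to 3, against 104, 103 and 104 FPKM after knockdown. Again every knockdown library was above every control. Knockdown averaged 104 ± 0.877 FPKM and controls 81.6 ± 1.65 FPKM (SD, n = 3), 27.0% higher in the knockdown (log2 difference 0.34, SE 0.04, 95% interval 0.25 to 0.43). IL4R, its partner in the type II receptor (ENSG00000077238, alone in its locus on chromosome 16, 27324989 to 27376099, hg19), was at 12.7, 13.8 and 12.9 FPKM in the knockdown and 11.7, 13.0 and 10.6 FPKM in the controls. The IL4R groups overlapped, with control replicate 2 above knockdown replicates 1 and 3. Knockdown averaged 13.2 ± 0.586 FPKM and controls 11.8 ± 1.17 FPKM, and the log2 difference of 0.15 (SE 0.08) had a 95% interval of -0.04 to 0.34, a range that holds 0. The ratio of IL13RA1 to IL4R was 8.18, 7.43 and 8.07 in the knockdown libraries and 6.84, 6.30 and 7.81 in the controls, so that the ranges overlapped. IL13RA2, the decoy receptor for interleukin 13, was listed at 0 in all 6 libraries.

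Promoter windows are shown for the 3 receptor genes that were higher in the knockdown. They were read from RefSeq (build GRCh38.p14, another build than hg19), cover 250 bases before to 50 after an annotated start, and run 5′ to 3′ in the direction of the gene. Which start H358 cells use was not measured. 6 motifs were searched on both strands, counting overlapping matches. The core promoter motifs were the TATA box, searched as TATAAA, and the GC box bound by Sp1 family factors, searched as GGGCGG. The motif of AP-1, a Fos and Jun family dimer, was searched as TGANTCA. Binding sites of the STAT factors that cytokine receptors activate were searched as TTCNNNGAA, and the STAT6 form of that site has 1 more base between its arms. The interferon response motif was searched as a repeat of GAAA after any pair of bases. Capitals mark every match. IL15RA has 4 listed starts, of which the first is shown. The windows are IL7R at chr5:35856641-35856940 (plus strand), IL15RA at chr10:5977997-5978296 (minus strand) and IL13RA1 at chrX:118727356-118727655 (plus strand).
IL7R: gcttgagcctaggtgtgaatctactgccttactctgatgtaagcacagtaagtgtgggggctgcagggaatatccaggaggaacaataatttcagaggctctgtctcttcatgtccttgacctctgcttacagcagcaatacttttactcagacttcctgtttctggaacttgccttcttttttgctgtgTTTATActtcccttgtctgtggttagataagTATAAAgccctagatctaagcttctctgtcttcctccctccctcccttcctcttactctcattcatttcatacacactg
IL15RA: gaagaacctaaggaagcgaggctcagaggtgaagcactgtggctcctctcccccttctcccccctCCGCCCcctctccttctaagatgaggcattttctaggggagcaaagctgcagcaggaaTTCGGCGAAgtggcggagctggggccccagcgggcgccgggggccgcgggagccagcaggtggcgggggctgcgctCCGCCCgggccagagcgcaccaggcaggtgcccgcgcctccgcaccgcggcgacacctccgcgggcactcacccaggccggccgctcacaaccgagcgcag
IL13RA1: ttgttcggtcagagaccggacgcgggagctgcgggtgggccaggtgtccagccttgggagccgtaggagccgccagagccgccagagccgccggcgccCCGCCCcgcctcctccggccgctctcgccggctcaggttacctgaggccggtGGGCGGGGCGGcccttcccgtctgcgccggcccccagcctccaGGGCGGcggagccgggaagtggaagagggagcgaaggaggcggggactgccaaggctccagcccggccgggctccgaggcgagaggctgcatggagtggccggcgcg

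The 3 windows did not look alike. The IL7R window held 44.3% G and C, no CpG dinucleotide and no GC box, and had TATAAA-type matches 29 and 60 bases before the start. The first IL15RA window held 71.0% G and C and 27 CpG, with GC boxes 51 and 185 bases before the start and a STAT match 127 bases before it. The IL13RA1 window held 76.3% G and C, 35 CpG and 4 GC boxes. IL4R, whose level overlapped between the groups, resembled IL13RA1, with 79.3% G and C, 42 CpG and 4 GC boxes. Over all 35116 windows of the same length the median was 58.7% G and C, 11.5% held a TATA box match, 45.0% a GC box, 7.71% an AP-1 match, 7.66% a STAT match, 6.44% a STAT6 match and 3.57% an interferon response match. AP-1 matches stood in 3 of the 4 IL15RA windows, at 2 distinct sites since a pair of these windows overlap and share 1, and in none of IL7R, IL13RA1 or IL4R, and neither of the last 2 motifs occurred in any of the windows read. A match describes letters only and was not tied to the differences in level.

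Of the 5 tested members 3 were called higher and none lower in the fit across all genes, where 5.10% of all tested genes were called higher and 6.34% lower, 11.4% in all. The groups did not overlap for 3 members with the knockdown higher, and for 1 with it lower, against 17.3% and 16.8% of all tested genes. The median log2 difference of the 5 was 0.34, beside 0.0061 over all tested genes. Since the members were picked with this contrast in view, nothing is read from these counts or from this median. Over the other settings the log2 difference of IL4R ran from 0.09 to 0.22 (16 settings) and that of IL7 from -0.28 to -0.16 (15 settings), and none of the 5 changed sign.

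**Figure D2:**
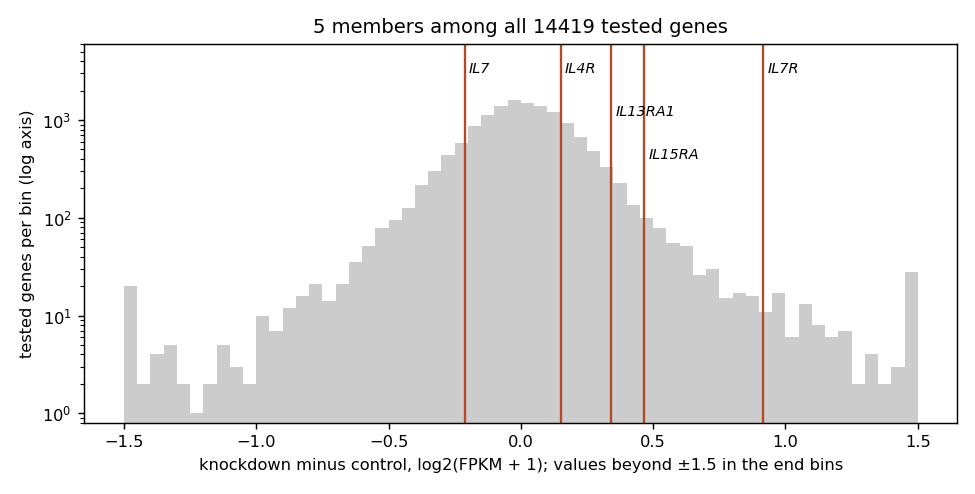
Distribution of the log2 difference, knockdown minus control, over 14419 tested genes (grey, logarithmic count axis, end bins collect values beyond the axis), with lines at the 5 tested members. IL7R at 0.92 lies in the upper tail, IL15RA (0.47) and IL13RA1 (0.34) on its shoulder, and IL4R (0.15) and IL7 (-0.21) among the bulk of genes.

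**Figure D3:**
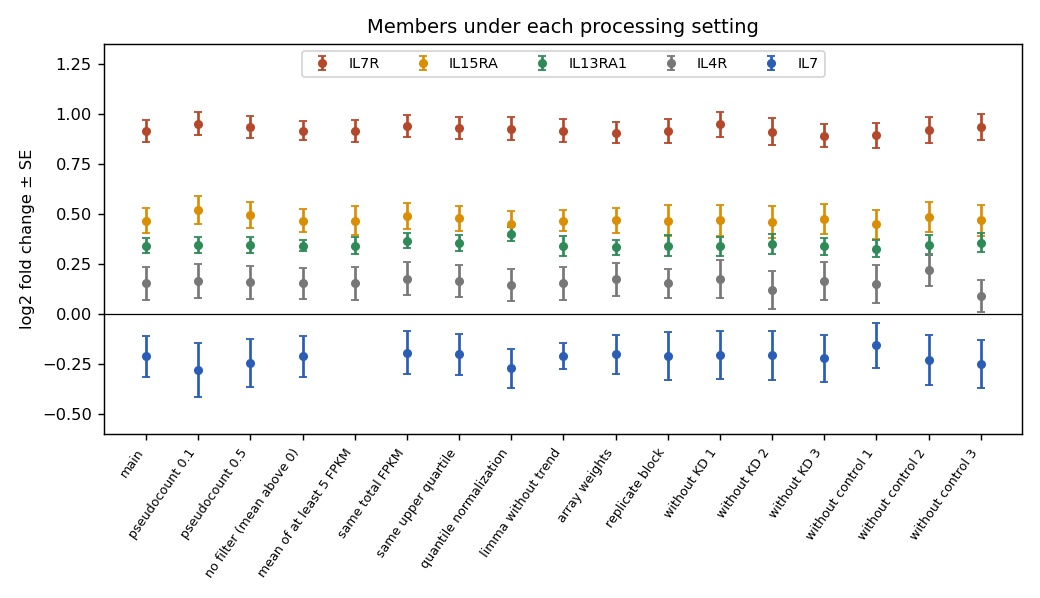
Log2 difference ± SE of the 5 tested members under the reported processing (leftmost) and 16 other settings (15 for IL7). IL7R stayed between 0.89 and 0.95, IL15RA between 0.45 and 0.52 and IL13RA1 between 0.33 and 0.40.

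The 2 ligand genes were low. IL7 encodes interleukin 7, the ligand of IL7R (ENSG00000104432, 79578282 to 79717758 on chromosome 8, hg19, in a locus the table gives to 4 genes). Control values were 3.19, 2.78 and 2.69 FPKM, against 2.32, 2.33 and 2.40 FPKM after knockdown. Each knockdown library was below every control, opposite in direction to IL7R, and the controls were spread more widely than the knockdown libraries. Knockdown averaged 2.35 ± 0.0453 FPKM and controls 2.89 ± 0.268 FPKM (SD, n = 3), and the log2 difference of -0.21 (SE 0.10) had a 95% interval of -0.45 to 0.02. It was -0.16 without control replicate 1, the highest library. Because FPKM of genes in a shared locus depend on how reads were assigned, the IL7 values are less certain than those of IL7R. The same limit holds for other genes here in shared loci, among them IL13RA1, JAK1, STAT4, SOCS2, PIAS3, IFNGR2 and BCL2L1.

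TSLP (ENSG00000145777, chromosome 5, 110405760 to 110466200, hg19, in a locus given to 3 genes) was at the floor. Control replicates 1 to 3 listed it at 0, 0.0239 and 0.0447 FPKM, and knockdown replicates 1 to 3 at 0, 0.0252 and 0 FPKM. Multiplied by the libraries' relative depth, read from the steps of low genes (1.03 for knockdown replicate 2, 1.08 and 1.16 for control replicates 2 and 3, with knockdown replicate 1 set to 1), the 3 nonzero values stood at 1, 1 and 2 steps. By this estimate all control libraries were deeper than all knockdown libraries, though it can also hold the unknown scaling between libraries. For such values depth or scaling and knockdown cannot be told apart, and no fold change is given. Of the other epithelial alarm cytokines IL25 was listed at 0 throughout, and IL33 was at 0.492, 0.838 and 0.877 FPKM in the knockdown and 0.577, 0.436 and 0.243 FPKM in the controls, below the minimum for testing and overlapping.

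The order of levels was the same in both groups. From high to low it was IL13RA1, IL7R, IL4R, IL15RA, IL7, IL2RG and TSLP, and in each group the 3 values of a gene lay apart from those of the next gene in the order. Except for IL7 to IL2RG (5.19 in the controls, 5.29 in the knockdown), ratios between neighbours in the order differed between the groups. That of IL2RG to TSLP rests on values at the floor and is not given. IL7R stood 1.44 times as high as IL4R in the controls and 2.50 times in the knockdown, while IL13RA1 stood 4.80 and 3.15 times as high as IL7R. IL4R stood 1.75 times as high as IL15RA in the controls and 1.36 times in the knockdown, and IL15RA stood 2.33 and 4.11 times as high as IL7. Among the 14419 tested genes the mean control level of IL13RA1 was at percentile 91.5, IL7R at 59.2, IL4R at 48.7, IL15RA at 34.6 and IL7 at 18.0. Within groups the coefficient of variation of the 5 tested members was between 0.846% (IL13RA1, knockdown) and 9.93% (IL4R, controls).

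The gene models differ in length and in number of transcripts. In GENCODE release 29, matched by Ensembl identifier, all 7 are protein-coding genes. The transcript with the longest coding region has a 3' untranslated part of 3117 bases in IL7R and 2685 in IL13RA1, against 948 in IL4R, 941 in IL7, 723 in IL15RA, 719 in TSLP and 332 in IL2RG. The predicted chains run from 159 codons (TSLP) to 825 (IL4R), counted without the stop codon, with 459 for IL7R. IL15RA has 22 annotated transcripts, IL4R 19 and IL7R 10, while IL13RA1 and TSLP have 3 each.

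Genes of the signalling pathway outside the set were mostly not past the threshold, though a larger share was called than of all tested genes. 7 lists of receptors, ligands, kinases, STATs, inhibitors and response genes held 97 different genes, of which 54 could be tested. Of these 4 were higher in the knockdown by the fit, 7 lower and 43 not called. Of all tested genes 5.10% were called higher and 6.34% lower, 11.4% in all. Whether the lists differ from all tested genes was not tested. The median log2 fold change of the 54 was 0.06.

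The receptor-bound kinase JAK1, which signals from IL7R, IL4R and other chains, was lower. It went from 71.5, 70.7 and 68.0 FPKM in the controls to 53.5, 55.1 and 62.0 FPKM in the knockdown, without overlap (log2 fold change -0.30, SE 0.06, limma, adjusted p = 0.0224). Of the 6 fits on 5 libraries only that lacking knockdown replicate 3 kept the call (adjusted p 0.0584 to 0.0806 in the other 5), and it was lost in limma without trend and with no filter. STAT4, which interleukin 12 is known to activate, rose (1.76 ± 0.254 FPKM in the controls, 3.05 ± 0.246 after knockdown, SD, n = 3), by a log2 fold change of 0.55 (SE 0.12) at a limma adjusted p of 0.0244. Its call held without knockdown replicate 1 or control replicate 3 but in none of the other 4 fits on 5 libraries (0.0620 to 0.0884), nor with no filter. The other 9 of 11 JAKs and STATs did not pass. JAK3, the kinase of the common gamma chain, lay at 2.26 ± 0.153 against 2.57 ± 0.0299 FPKM in the controls. STAT5B, the main STAT of IL7R beside STAT5A, lay at 9.17 ± 0.576 against 7.66 ± 0.0822 FPKM (log2 fold change 0.23, adjusted p = 0.0752), and STAT5A at 0.917 ± 0.150 against 1.17 ± 0.0582 FPKM (-0.18, adjusted p = 0.413). STAT6, which acts below IL4R, lay at 59.4 ± 1.01 against 55.1 ± 0.984 FPKM (0.11, adjusted p = 0.140).

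Of 17 tested inhibitors 3 were higher and none lower. SOCS2, a suppressor of cytokine signalling that STAT5 is known to induce, rose from 2.67, 2.17 and 1.82 FPKM in the controls to 3.70, 4.28 and 3.36 FPKM in the knockdown (log2 fold change 0.57, SE 0.13, limma, adjusted p = 0.0320). SOCS7 rose by 0.32 (adjusted p = 0.0275) and PIAS3, an inhibitor of STAT3, by 0.29 (adjusted p = 0.0163). None of the 3 calls was firm. On 5 libraries SOCS2 passed only where knockdown replicate 3 or control replicate 1 was the one left out (0.0749 to 0.108 in the other 4), SOCS7 in none of the 6 (0.0513 to 0.0820), and PIAS3 failed without any one of the 3 control libraries (0.0525 to 0.0553). With no filter, SOCS2 and SOCS7 were not called either. CISH, the other STAT5-induced inhibitor, was at 1.93 ± 0.306 against 1.72 ± 0.234 FPKM (log2 fold change 0.11, adjusted p = 0.649), and SOCS1 was under the minimum.

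**Figure D4:**
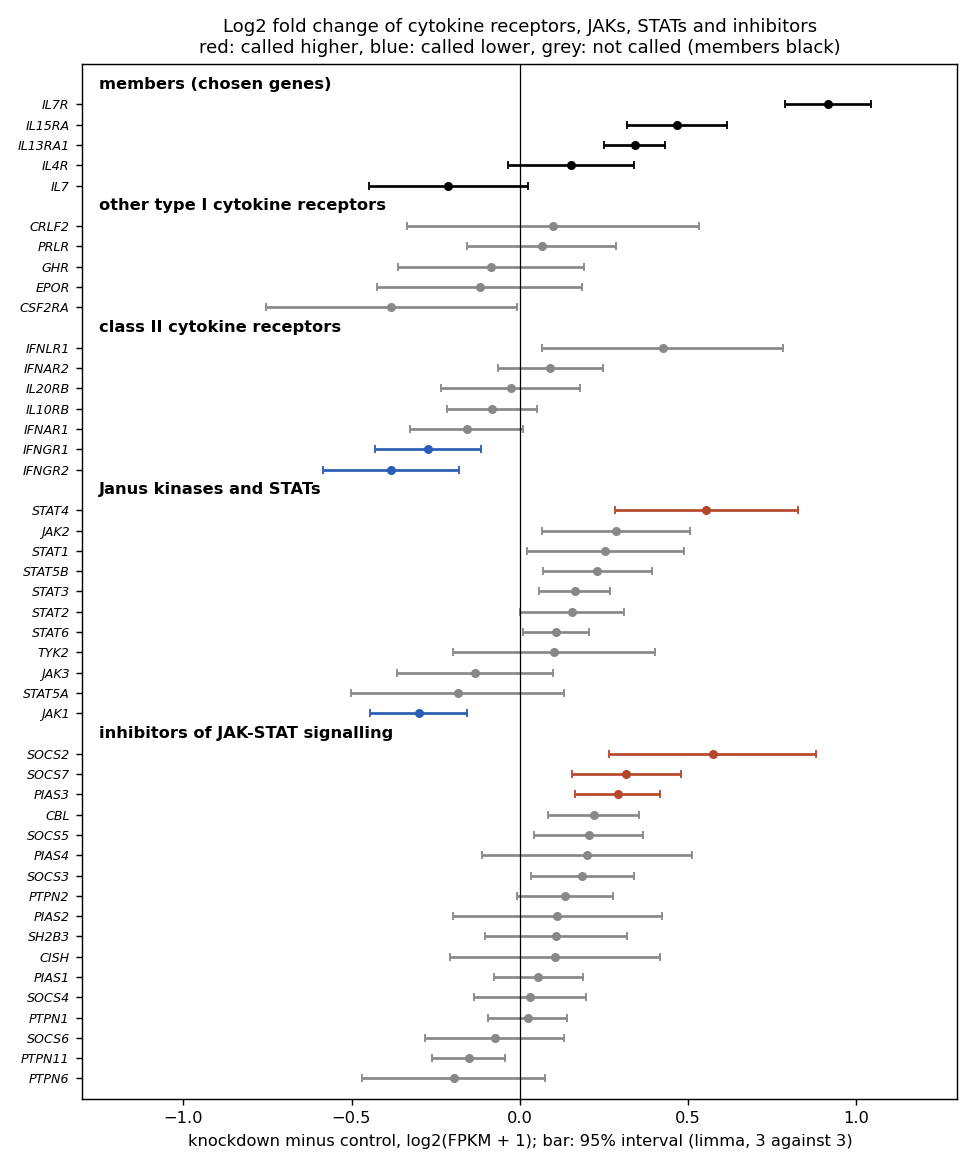
Log2 fold change with 95% intervals (limma, 3 knockdown against 3 control libraries) for the tested members, other type I and class II cytokine receptors, JAKs and STATs, and inhibitors; red and blue mark genes outside the set called higher and lower, and members are black. IL7R at 0.92 stands to the right of every other gene drawn, and JAK1 (-0.30), IFNGR1 (-0.27) and IFNGR2 (-0.38) are called lower.

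Few of the other receptor chains listed for this class were expressed. The list holds 18 further chains of type I receptors and is not the whole class. Receptors of the interleukin 6 family, for one, were not looked at. Of the 18 chains 5 could be tested and none was called by limma, with 1 (CSF2RA) at an unadjusted p under 0.05. The highest by mean were CSF2RA, a chain of the GM-CSF receptor, at 5.39 ± 0.884 against 7.38 ± 1.67 FPKM (log2 fold change -0.38, limma, adjusted p = 0.166), and PRLR, the prolactin receptor, at 2.66 ± 0.0175 against 2.50 ± 0.118 FPKM (0.06, adjusted p = 0.701). CSF2RA, like CRLF2, is in the region shared by X and Y, in a locus given to 7 genes, so its values are less certain. 6 of the 18 (IL2RA, IL21R, IL13RA2, CSF2RB, IL5RA and IL12RB1) were listed at 0 in all libraries. Of 7 tested class II receptors 2 were lower, both chains of the interferon gamma receptor. IFNGR2 had 103 ± 9.17 FPKM in the controls against 78.6 ± 7.82 FPKM (log2 fold change -0.38, limma, adjusted p = 0.0304) and IFNGR1 had 142 ± 3.82 against 117 ± 11.3 FPKM (-0.27, adjusted p = 0.0421). Both held without knockdown replicate 3, and IFNGR2 also without control replicate 1. The remaining fits without 1 library gave 0.0826 to 0.0981 for IFNGR2 and 0.0916 to 0.133 for IFNGR1. With no filter (0.0912 and 0.106) and in limma without trend (0.0626 and 0.0862) neither IFNGR2 nor IFNGR1 passed, and IFNGR1 also missed the threshold with the same total FPKM, the same upper quartile and quantile normalization (0.0508 to 0.0678). Of 11 other ligands 2 could be tested and none was called by limma (0 at an unadjusted p under 0.05), IL15 (above) and CSF2, the gene of GM-CSF, at 7.28 ± 3.29 against 8.13 ± 2.18 FPKM (-0.18, adjusted p = 0.709). IL2, IL4, IL9, IL21, IL25 and IL3 were listed at 0 throughout.

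Genes known to respond to interleukin 7 or STAT5 moved in both directions. Of 11 tested 1 was higher, SOCS2, and 4 were lower, with a median of 0.03. MYC, a growth-promoting transcription factor, went from 49.2, 44.1 and 45.5 FPKM in the controls to 33.5, 32.8 and 31.8 FPKM in the knockdown (log2 fold change -0.49, SE 0.06, limma, adjusted p = 0.00301). BCL2L1, a survival gene of the BCL2 family, went from 85.8 ± 2.55 to 68.0 ± 2.64 FPKM (-0.33, adjusted p = 0.00626), and the glucose transporter gene SLC2A1 from 208 ± 4.13 to 168 ± 10.8 FPKM (-0.30, adjusted p = 0.0132, and 0.0518 without control replicate 3). The fourth was the transferrin receptor TFRC, outside the naming rule (-0.18, adjusted p = 0.0355). MYC and BCL2L1 passed in every fit without 1 library. BCL2, the survival gene best known below IL7R in lymphocytes, was listed at 0 in 5 libraries and at 0.017 FPKM in control replicate 1.

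Of 19 genes known to respond to interleukins 4 and 13 through STAT6, 3 could be tested and none was called by limma, with 2 (TGM2 and MUC5AC) at an unadjusted p under 0.05. TGM2, a transglutaminase, lay at 309 ± 24.2 against 260 ± 13.7 FPKM (log2 fold change 0.25, limma, adjusted p = 0.0536). The mucin gene MUC5AC lay at 1.74 ± 0.0368 against 2.90 ± 0.575 FPKM (-0.50, adjusted p = 0.0531), in the opposite direction. The third, SPDEF, outside the naming rule, was also lower, at 0.980 ± 0.0677 against 1.39 ± 0.176 FPKM (-0.27, limma, adjusted p = 0.226). The groups did not overlap for any of the 3 genes. The same held for 17.3% of all tested genes with the knockdown higher and 16.8% with it lower. TGM2 passed with the same total (0.0276), the same upper quartile (0.0409), quantile normalization (0.0119), array weights (0.0248), a mean of at least 5 FPKM (0.0414) and without knockdown replicate 3 (0.0197), and MUC5AC with a pseudocount of 0.1 (0.0495), quantile normalization (0.0432), limma without trend (0.0435), array weights (0.0358) and without control replicate 1 (0.0388).

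The genes whose levels over the 6 libraries were most like those of IL7R, by Pearson correlation of log2(FPKM + 1), were HERC5, CCNF, OASL, TTK and KIF20B, with r from 0.998 to 0.9996. HERC5, a ligase for the ubiquitin-like protein ISG15, lay at 37.9, 39.3 and 40.5 FPKM in the knockdown and 24.6, 24.9 and 25.4 FPKM in the controls. OASL, a member of the oligoadenylate synthetase family, lay at 39.8, 40.8 and 41.5 against 24.2, 25.3 and 25.1 FPKM. TTK, a spindle checkpoint kinase, lay at 4.17, 4.38 and 4.80 against 1.74, 1.75 and 1.78 FPKM, with the cyclin gene CCNF and the kinesin gene KIF20B at log2 differences of 0.58 and 0.62. Besides IL7R, 35 of the 14419 tested genes had r above 0.99. The points are 6 libraries in 2 groups, so that any gene with a tight step between the groups scores high, and the correlation is a description only.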

How the data were processed

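RNA-seq of 3 RBM47 knockdown and 3 control libraries was used. Per the submitters' processing notes the tools were TopHat 1.4.1 and Cuffdiff 2.2.0 and the build was hg19; settings are not stated there. The authors deposited FPKM per gene and library, 57150 genes in 1 table. No source used here gives the scaling between libraries, the annotation or the use of strand, and fragment counts are unknown, so no count test was run.

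Genes whose mean reached 1 FPKM were compared between the groups on log2(FPKM + 1) values by limma 3.58.1 (R 4.3.3; the prior follows the mean level), with Benjamini-Hochberg adjustment over all 14419 tested genes and a threshold of 0.05. Fold changes on this scale understate those of low genes. A symbol in several rows was taken at the row of highest mean. The code of the fit was checked on simulated data with known changes. The simulated noise was independent between genes and libraries and followed the fitted variances. The check therefore tells nothing of scaling or read assignment.

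The members and lists were chosen with earlier results of these data known, the lists from textbook knowledge and not from their values. Named were RBM47, the members, in each list up to 4 called genes of largest absolute fold change or, with none, the 2 of highest mean, and the 5 genes most correlated with IL7R, leaving out short RNAs, unnamed loci and repeated symbols. Locus starts, 0-based in the table, are printed 1-based. Relative depth is the most frequent ratio between libraries of genes under 0.3 FPKM in all 6. Promoters come from RefSeq (6 of 7 members matched), transcript lengths from GENCODE release 29. Figures used matplotlib 3.10.9 (Python 3.11.15).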

Additional observations from a re-analysis of the deposited data

How the results depend on the processing

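No result among the named genes changed sign under the 16 other settings, which left out each library, changed the pseudocount (0.1 or 0.5), the filter, the scaling, the trend, array weights or added the replicate number as a block. With no filter, 366 genes were called higher and 550 lower in the whole table instead of 736 and 914, and among pathway genes 1 and 3 instead of 4 and 7. Scaled to the same total FPKM, 914 genes were called higher and 786 lower. Whether more genes were called lower than higher thus depended on the scaling. Pathway genes called higher numbered 7 with the same total FPKM and 7 with array weights, and those called lower numbered 4 in limma without trend. Fits without 1 library called 258 to 503 genes higher and 421 to 785 lower, and 0 to 3 pathway genes higher and 2 to 7 lower, with 3 libraries against 2.

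Same-numbered libraries did not deviate together (correlations of 0.0187, -0.0961 and 0.0772 for replicates 1, 2 and 3), so the numbers were not taken as pairs. The replicate block gave 348 genes higher and 489 lower, and 0 and 4 among pathway genes. Under it JAK1, STAT4, IFNGR1, SOCS2, SOCS7 and PIAS3 were not called (adjusted p 0.0513 to 0.0852), while IFNGR2, MYC, BCL2L1 and SLC2A1 were. IL7 has no value at a mean of at least 5 FPKM. The planned second row per symbol gave no value, since each member has 1 row. With unknown depth, IL2RG and TSLP allow no statement on the knockdown.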

Other observations

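2 receptor genes known from epithelial cells, picked here after their values were seen, were higher in each knockdown library than in each control at levels near 1 FPKM. Of all tested genes 17.3% were likewise apart with the knockdown higher. Among the 7 tested class II receptors 1 (IFNLR1) was apart and higher, and 2 were apart and lower. The median log2 fold change of these 7 was -0.08. IFNLR1, the chain of the interferon lambda receptor, lay at 1.49, 1.85 and 1.20 FPKM in the knockdown and 0.684, 0.952 and 0.971 FPKM in the controls, and was not past the threshold (log2 fold change 0.43, SE 0.15, limma, adjusted p = 0.119). IL22RA1, a chain of the interleukin 22 receptor, lay at 0.924, 0.857 and 0.792 FPKM against 0.664, 0.550 and 0.532 FPKM and was too low to be tested. IL10RB, which pairs with both, lay at 17.1, 16.6 and 18.1 FPKM in the knockdown against 17.7, 18.6 and 18.8 FPKM in the controls, with overlapping groups (log2 fold change -0.08).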
